A study of Mus musculus with 4 samples.

Results

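A set of 10 genes of the interleukin-1 system was followed through single-cell RNA-Seq of mouse lung: the ligands Il1a, Il1b, Il18 and Il33, the receptor antagonist Il1rn, the receptor chains Il1r1 and Il1rap, the decoy receptor Il1r2, the inflammasome sensor Nlrp3 and the inflammasome protease Casp4. They were picked by gene symbol, each symbol matched 1 row of the count matrices, and they make up 10 of 32285 genes. UMIs (unique molecular identifiers, each standing for 1 captured RNA molecule) were summed for each gene in each library and each cell class.

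The cells came from the left lung lobe of male C57BL/6 mice, dissociated and cryopreserved, and each library pooled the cells of 3 mice. Mice were young (2 to 3 months) or aged (22 months), and the aged mice had been kept on a restricted diet. Each age was taken without and with ventilation, which made 4 groups with 1 library in each. Where 4 values follow one another, the young pair comes first, then the aged pair, each with its nonventilated library ahead of its ventilated one. Ventilated mice were anesthetized with ketamine and medetomidine, given buprenorphine and fitted with vascular lines, and then ventilated for 3 hours on pure oxygen with a tidal volume of 20 mL/kg at 150 breaths per minute. Ventilated and nonventilated libraries therefore differed in anesthesia, analgesia, surgery, oxygen and ventilation, which cannot be told apart here, and the same holds for age and diet. The paper also capped the tidal volume, so heavier mice received less per kg of body weight, and it reports aged mice as heavier in general. Age and the volume per kg therefore cannot be told apart between the ventilated libraries either.

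With 1 pooled library in a group there was no replicate, so no test was run. Every interval in parentheses is a 95% interval that covers counting error only and says nothing of how much mice differ. A gene was counted as risen or fallen in a cell class when its level differed at least 2-fold, the interval of the ratio left out 1, and at least 1 of the 2 libraries held 20 UMIs of it in a class with at least 10 cells in both. Levels are CPM, that is, UMIs of the gene per 1000000 UMIs of the class in that library. CPM of different genes are not compared, and in summed counts fewer cells using a gene and less RNA per cell cannot be told apart.

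Of 15428 barcodes, 10160 were kept as cells, between 2171 and 2976 in a library, with library medians between 7871 and 9104 UMIs per cell. Any pair of libraries shared between 0 and 3 kept barcodes. Clusters were named from marker genes. The members and the other listed pathway genes were left out of the clustering, but the genes that IL-1 is known to induce were allowed. Of the cells, 9980 fell into classes called "-like" because the names rest on those markers alone. A single cluster stayed unnamed and held 0.237%, 3.06%, 2.22% and 1.29% of the cells of the 4 libraries in that order. Several classes came from different clusters in nonventilated and ventilated mice. General capillary-like cells came mostly from cluster 0 without ventilation and from cluster 1 with it, alveolar fibroblast-like cells from clusters 5 and 2, aerocyte-like cells from clusters 17 and 20, nonclassical monocyte-like cells from clusters 4 and 6, and classical monocyte-like cells from clusters 21 and 16. Cluster 2 had none of the alveolar fibroblast markers among its 10 leading genes, and the interstitial macrophage-like cluster had 2 dendritic cell markers among its own 10.

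IL-1 signaling starts when IL-1α or IL-1β binds the receptor encoded by Il1r1, which then recruits the accessory chain encoded by Il1rap and activates NF-κB. The antagonist encoded by Il1rn occupies the same receptor without recruiting the accessory chain, and the decoy encoded by Il1r2 binds ligand but cannot signal. IL-1β and IL-18 are made as inactive precursors that are cut after inflammasomes, such as the one built on NLRP3, activate caspase-1, and Casp4 encodes the caspase that senses lipopolysaccharide in the cytosol. IL-1α and IL-33 are active when released from damaged cells, and in the lung macrophages, neutrophils, epithelium and stroma are all known sources or targets of the family. RNA levels say nothing of cleavage or release of the proteins.

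On the mouse assembly GRCm38, Il1b lay at chr2:129364570-129371139 and Il1a at chr2:129299610-129309972, both on the minus strand, with Il1rn at chr2:24336853-24351494 on the plus strand of the same chromosome. Il1r2 (chr1:40074079-40125231) and Il1r1 (chr1:40225080-40317257) were neighbors on the plus strand of chromosome 1. Il18 (chr9:50554827-50581840) and Casp4 (chr9:5308828-5336783) were on chromosome 9, Nlrp3 on chromosome 11 (chr11:59541568-59566956), Il1rap on chromosome 16 (chr16:26581704-26730117) and Il33 on chromosome 19 (chr19:29925114-29960718), all on the plus strand.

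Because Il1b, Il1a, Il1rn and Casp4 carried most of the rises described below, the 250 bases before a RefSeq start of each are shown 5′ to 3′ along the gene's strand (GRCm38.p6). Capitals mark matches to a TATA box (TATAAA), an AP-1 site (TGANTCA) or the κB consensus, searched on both strands.
Il1b, chr2:129371140-129371389, minus strand: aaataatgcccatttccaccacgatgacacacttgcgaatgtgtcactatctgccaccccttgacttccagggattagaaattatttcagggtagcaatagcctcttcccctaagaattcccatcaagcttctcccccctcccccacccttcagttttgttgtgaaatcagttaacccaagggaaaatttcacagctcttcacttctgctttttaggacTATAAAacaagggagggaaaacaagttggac
Il1a, chr2:129309973-129310222, minus strand: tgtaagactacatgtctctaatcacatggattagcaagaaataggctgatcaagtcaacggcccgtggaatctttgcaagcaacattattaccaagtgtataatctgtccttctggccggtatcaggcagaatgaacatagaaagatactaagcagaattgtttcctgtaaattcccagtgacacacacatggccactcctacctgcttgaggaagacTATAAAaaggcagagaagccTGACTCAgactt
Il1rn, chr2:24336610-24336859, plus strand, 1 of 3 listed starts: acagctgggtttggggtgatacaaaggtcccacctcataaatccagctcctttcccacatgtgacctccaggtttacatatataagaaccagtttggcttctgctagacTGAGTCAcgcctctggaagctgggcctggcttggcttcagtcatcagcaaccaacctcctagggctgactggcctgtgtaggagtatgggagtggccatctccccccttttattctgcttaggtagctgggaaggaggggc
Casp4, chr9:5308599-5308848, plus strand, 1 of 2 listed starts: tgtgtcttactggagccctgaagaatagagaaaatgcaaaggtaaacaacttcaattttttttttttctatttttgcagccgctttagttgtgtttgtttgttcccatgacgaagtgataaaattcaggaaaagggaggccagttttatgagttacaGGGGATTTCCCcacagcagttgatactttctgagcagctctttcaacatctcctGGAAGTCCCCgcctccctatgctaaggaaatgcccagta
A TATAAA began 31 bases before the Il1b start and 32 bases before the Il1a start. An AP-1 match stood 12 bases before the Il1a start and 141 bases before the Il1rn start. The Casp4 window held overlapping κB matches 93 and 92 bases before the start and another at 39 bases. Among 32851 RefSeq promoters of the same 300-base length (250 before and 50 after the start), 8.46% held a κB match, 7.81% an AP-1 match and 13.6% a TATA box, against 4, 2 and 6 of the 16 promoters listed for the members. These counts are of starts and not of separate sites. The Casp4 starts at 5308849 and 5308860 held the same κB matches. TATA matches of Il18 and of 1 Il33 start lay 175 and 203 bases before the start, and that of Il1rn lay after it. A glucocorticoid response element was found in 0.00913% of all promoters and in 0 of the 16. These matches are letters only, and the counts do not tell which start was used.

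Over all cells, Il1rn and Il1b rose with ventilation at both ages and 4 other members at one. Il1rn stood at 15.7 CPM in the young nonventilated library, 90.1 CPM in the young ventilated, 20.1 CPM in the aged nonventilated and 99.8 CPM in the aged ventilated library, a rise of 5.75-fold (5.16 to 6.42) and 4.97-fold (4.51 to 5.49). Il1b stood at 494 and 992 CPM in the young libraries and 478 and 1538 CPM in the aged libraries, nonventilated first, a rise of 2.01-fold (1.97 to 2.05) and 3.22-fold (3.15 to 3.28). Both genes were higher in each ventilated library than in either nonventilated one. Over all genes, 6.07% passed the same rule upward in young and 4.12% in aged mice. Casp4 (2.09-fold, 1.996 to 2.19) and Il1r1 (2.11-fold, 1.98 to 2.26) rose in young mice, and Il1r2 (3.37-fold, 3.18 to 3.57) and Nlrp3 (2.30-fold, 2.18 to 2.42) rose in aged mice. Sums over all cells also move with the mix of classes, and neutrophil-like cells numbered 122, 221, 59 and 256 cells in the 4 libraries in the order given above, so the classes are described one at a time.

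**Figure D1:**
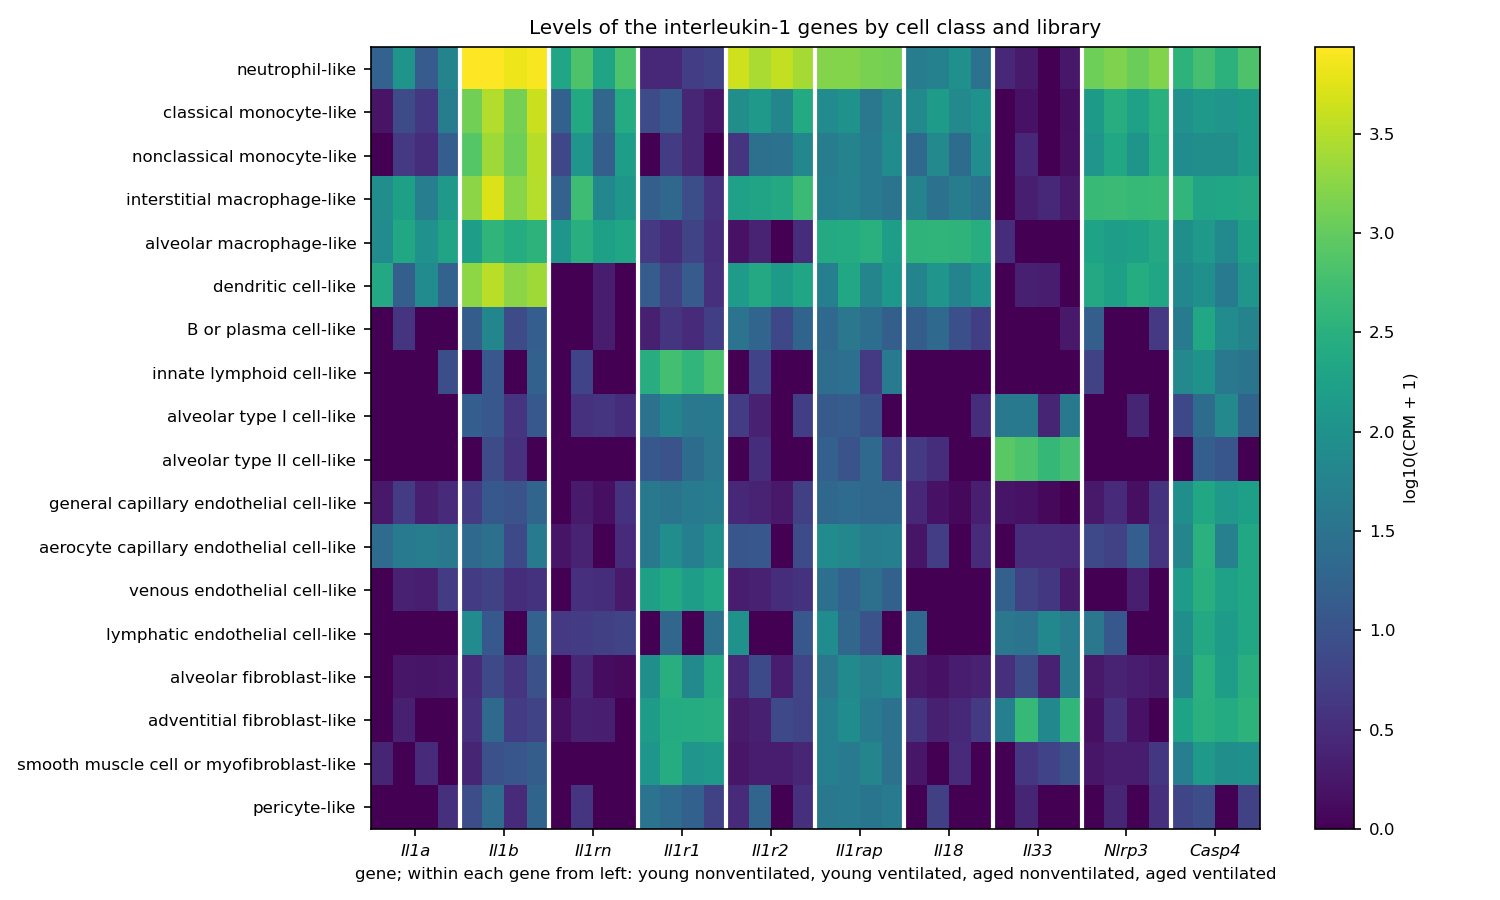
Level of each of the 10 genes by library in the named cell classes, leaving out T-like, natural killer-like, basophil or mast cell-like, airway epithelial-like and mesothelial-like cells, with color giving log10 of CPM plus 1 (all 4 libraries of a class side by side). Il1b, Il1r2, Il1rap and Nlrp3 are most intense in neutrophil-like cells, Il18 in alveolar macrophage-like cells, Il1r1 in stromal, endothelial and innate lymphoid-like cells, and Il33 in alveolar type II-like and adventitial fibroblast-like cells.

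The leading class differed between the members. Among the 18 classes with at least 10 cells in each library, ranked by the median of the 4 libraries, neutrophil-like cells stood highest for Il1b, Il1rn, Il1r2, Il1rap, Nlrp3 and Casp4, alveolar macrophage-like cells for Il1a and Il18, innate lymphoid-like cells for Il1r1 and alveolar type II-like cells for Il33. The 4 library values of the leading class did not overlap those of the next class for Il1b, Il1r1, Il1r2, Il1rap, Il18 and Nlrp3. For Il1a, Il1rn, Il33 and Casp4 the leading class and the next overlapped. The leading class was picked from these same values. No share over all genes is given beside this, so it only describes the members. Basophil or mast cell-like cells, with under 10 cells in the aged ventilated library, were left out of this order and held more Nlrp3 than neutrophil-like cells in each library, at 3065 and 2762 CPM in the young libraries and 2050.3 and 1987 CPM in the aged libraries, nonventilated first. The neutrophil-like cluster counted Il1r2 among its 10 leading genes, so its Il1r2 level is a description of that cluster.

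Il1b, the secreted ligand that needs cleavage, was a gene of myeloid cells. In neutrophil-like cells it stood at 8623 CPM in the young nonventilated library, 8541 CPM in the young ventilated, 6913 CPM in the aged nonventilated and 7849 CPM in the aged ventilated library. These 4 values differed by less than 2-fold, with a ventilated to nonventilated ratio of 0.990-fold (0.956 to 1.03) in young and 1.14-fold (1.08 to 1.20) in aged mice. Cells with at least 2000 UMIs were thinned to 2000 UMIs, and shallower cells were left out of every thinned share. Between 99.1% and 100% of the thinned neutrophil-like cells held an Il1b UMI, so nearly every one of these carried the transcript with or without ventilation.

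The monocytes moved instead. Classical monocyte-like cells held 1244 CPM in the young nonventilated library, 3059.8 CPM in the young ventilated, 1305 CPM in the aged nonventilated and 4197 CPM in the aged ventilated library, a rise of 2.46-fold (2.34 to 2.59) in young and 3.22-fold (3.05 to 3.39) in aged mice. Nonclassical monocyte-like cells, the patrolling subset, held 782 and 2406 CPM in the young libraries and 1181 and 3256 CPM in the aged libraries, nonventilated first, and rose 3.08-fold (2.87 to 3.29) and 2.76-fold (2.65 to 2.87). In both classes and at both ages the ventilated library was above both nonventilated libraries. The thinned share of classical monocyte-like cells with an Il1b UMI was 69.5%, 85.5%, 67.03% and 88.1% in the 4 libraries in order, and unthinned it was 84.8%, 93.6%, 85.7% and 96.5%, with median depths of 15469, 16629.5, 13613 and 18863 UMIs. Pericyte-like cells, which should lack Il1b, had an unthinned share of 3.26%, 3.51%, 1.25% and 7.69% and a thinned share of at most 2.17%, at median depths of 6128, 5784, 6364 and 6514 UMIs.

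Macrophages and dendritic cells followed less evenly. Interstitial macrophage-like cells had 1760.5 CPM in the young nonventilated library, 5266 CPM in the young ventilated, 1698 CPM in the aged nonventilated and 3187 CPM in the aged ventilated library, which passed the fold in young mice (2.99-fold, 2.84 to 3.15) and not in aged mice (1.88-fold, 1.78 to 1.98). Alveolar macrophage-like cells held 155 and 377 CPM in the young libraries and 270.2 and 349.7 CPM in the aged libraries, nonventilated first, and again passed in young (2.43-fold, 2.11 to 2.80) and not in aged mice (1.29-fold, 1.12 to 1.50). Dendritic-like cells had 1820.4 and 3415 CPM in the young libraries and 1794 and 2361 CPM in the aged libraries, past the fold at neither age. Whether the ages differed in these classes was not tested.

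Neutrophil marker RNA moved with ventilation in the same classes. The summed level of the 8 neutrophil markers was 226 and 1451 CPM in the young pair of classical monocyte-like sums, nonventilated first, and 225 and 1505 CPM in the aged pair, with between 1 and 4 of the 8 at 0. In nonclassical monocyte-like cells it was 235, 1082, 318 and 4175 CPM in the 4 libraries in order, with between 0 and 4 at 0. For each 100 UMIs of these markers, neutrophil-like cells held between 5.14 and 10.3 UMIs of Il1b. Classical monocyte-like cells held between 211 and 579, nonclassical monocyte-like cells between 77.99 and 371, and interstitial macrophage-like cells between 1336 and 7039. The ratio was thus higher in these 3 classes than in neutrophil-like cells, and the part of neutrophil RNA in their Il1b was not tested.

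In structural cells the picture was different. Alveolar fibroblast-like cells held 7, 44, 9 and 32 UMIs of Il1b in the 4 libraries in order, and general capillary-like cells 18, 59, 41 and 64 UMIs. Both passed the fold in young mice (3.14-fold and 2.83-fold), but per 100 neutrophil marker UMIs they held between 9.77 and 40.6, a range that reaches down to that of neutrophil-like cells. With 5% of each class sum removed in the proportions of the library, no Il1b UMIs were left to compare in either class in young mice. These low counts are given as values, and the part of free RNA in them was not tested. In aged aerocyte-like cells, where the ratio was 6.10-fold (2.56 to 17.7), that removal also left no Il1b UMIs. B-like cells held 11, 21, 7 and 16 UMIs of Il1b and passed in young mice (4.66-fold, 2.15 to 10.7). The Il1b (22, 3, 0 and 3 UMIs) and Il1r2 (28, 0, 0 and 2 UMIs) of lymphatic-like cells likewise came largely from 1 young nonventilated cell.

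**Figure D2:**
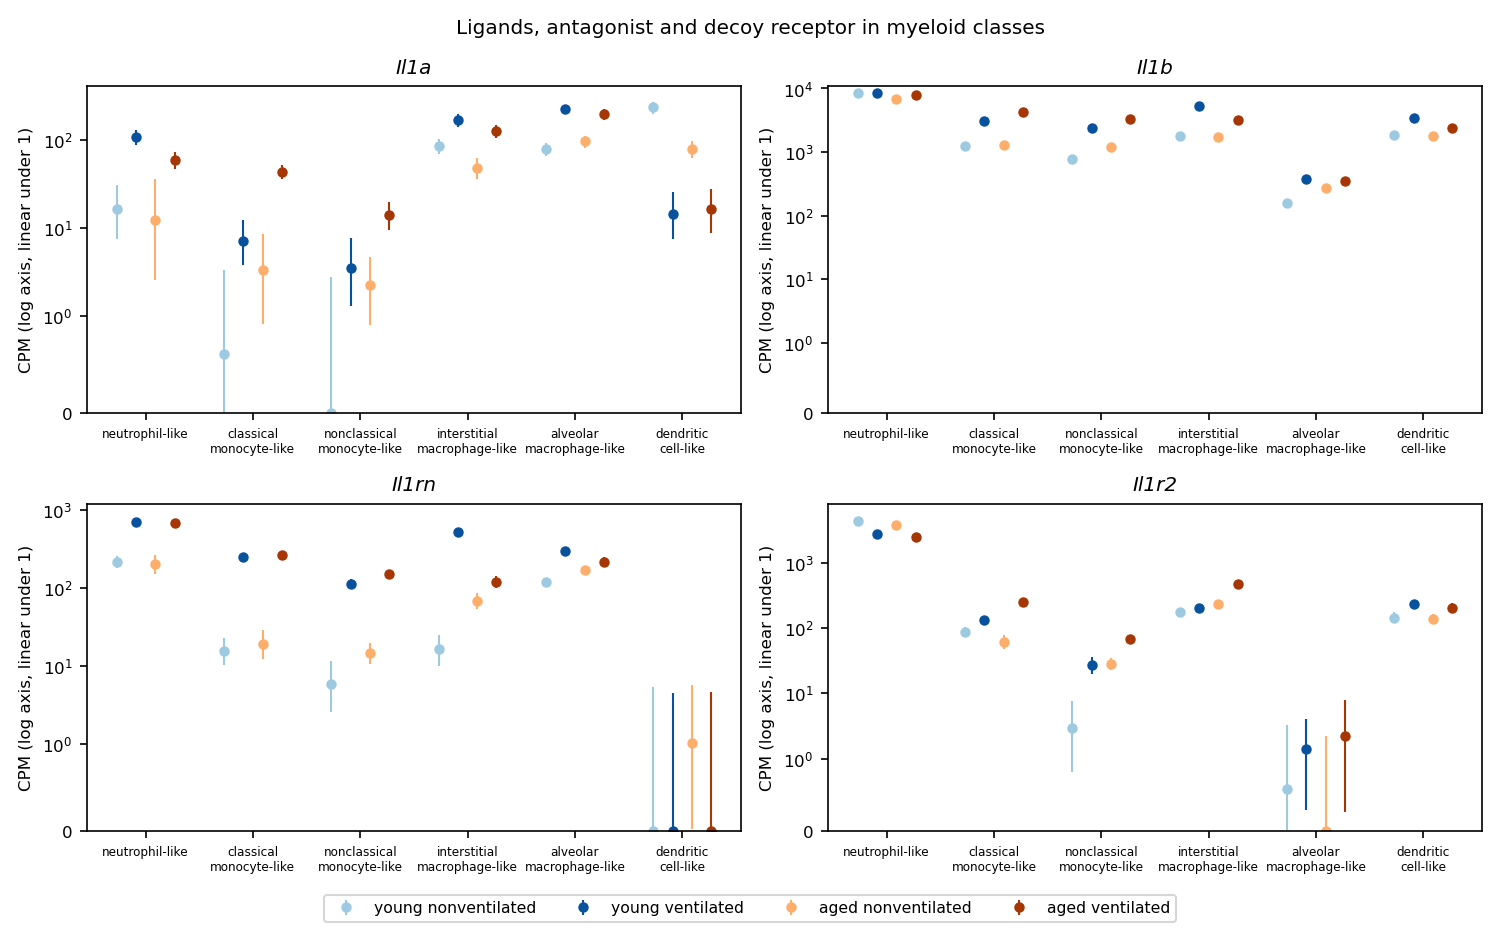
CPM of Il1b, Il1rn, Il1a and Il1r2 on a log axis (linear under 1 CPM) in the 6 myeloid cell classes, with 1 point per library and bars for the exact Poisson 95% interval. Il1b is level in neutrophil-like cells, between 6913 and 8623 CPM, and higher in each ventilated library of both monocyte classes, while Il1rn is higher in the ventilated library of each pair outside dendritic-like cells.

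Il1a, the ligand active without cleavage, rested on few UMIs and chiefly on macrophages. Alveolar macrophage-like cells stood at 79.01 CPM in the young nonventilated library, 230.0 CPM in the young ventilated, 97.1 CPM in the aged nonventilated and 197 CPM in the aged ventilated library, a rise of 2.91-fold (2.40 to 3.55) in young and 2.03-fold (1.63 to 2.53) in aged mice. Neutrophil-like cells stood at 16.3 and 108 CPM in the young libraries and 12.3 and 59.5 CPM in the aged libraries, nonventilated first, on 9, 116, 3 and 78 UMIs, and rose 6.63-fold (3.37 to 14.9) and 4.83-fold (1.59 to 23.9). Both ventilated libraries were above both nonventilated libraries in each class. Interstitial macrophage-like cells had 85.2 and 169 CPM in the young libraries and 47.8 and 127 CPM in the aged libraries and passed the fold in aged mice (2.66-fold, 1.94 to 3.70), with 1.98-fold (1.54 to 2.56) in young mice. In classical monocyte-like cells Il1a reached 117 UMIs in the aged ventilated library against 4 in the aged nonventilated one, a rise of 13.1-fold (4.99 to 48.9). The young libraries held 1 and 13 UMIs, a ratio of 11.9-fold (1.79 to 507) on too few UMIs to be counted. Nonclassical monocyte-like cells held 0, 6, 7 and 32 UMIs and rose in aged mice (6.21-fold, 2.69 to 16.7), where the ventilated library was also above the young ventilated one (4.02-fold, 1.66 to 11.8).

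Dendritic-like cells went the other way. Their Il1a stood at 237 CPM in the young nonventilated library, 14.6 CPM in the young ventilated, 79.2 CPM in the aged nonventilated and 16.4 CPM in the aged ventilated library, a fall of 16.3-fold (9.07 to 32.2) in young and 4.83-fold (2.66 to 9.48) in aged mice. This was the only pair of a member and a class that was lower past the fold at both ages. It rested on 163, 12, 77 and 13 UMIs in 33, 41, 49 and 34 cells, and the aged ratio passed 1 under 2 of the alternatives given at the end. Between the nonventilated libraries Il1a was also lower in the aged dendritic-like cells, 2.99-fold (2.27 to 3.98). Aerocyte-like cells held 35, 56, 43 and 36 UMIs of Il1a, past the fold in neither ventilation comparison, and general capillary-like cells held 4, 20, 5 and 7 UMIs, at most 3.75 CPM, which passed in young mice (4.31-fold, 1.45 to 17.4).

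Il18, which induces interferon-γ, was most abundant in alveolar macrophage-like cells and did not pass the fold there. Those cells stood at 356 CPM in the young nonventilated library, 369 CPM in the young ventilated, 362 CPM in the aged nonventilated and 279 CPM in the aged ventilated library and held between 27.5% and 64.8% of each library's Il18 UMIs. Nonclassical monocyte-like cells, by contrast, moved from 20.9 to 69.8 CPM (young) and from 23.2 to 85.04 CPM (aged), a rise of 3.35-fold (2.20 to 5.25) and 3.66-fold (2.78 to 4.87). The thinned share of nonclassical monocyte-like cells with an Il18 UMI was 4.26%, 8.70%, 3.25% and 8.59% in the 4 libraries in order. Classical monocyte-like (1.96-fold, 1.57 to 2.44, and 1.47-fold, 1.15 to 1.89) and dendritic-like cells (1.90-fold, 1.29 to 2.83, and 1.72-fold, 1.21 to 2.46) had ratios below the fold at both ages. Interstitial macrophage-like cells held 55.8 and 29.5 CPM in the young libraries and 44.3 and 30.9 CPM in the aged libraries, nonventilated first, with ratios of 0.528-fold (0.324 to 0.838) and 0.697-fold (0.440 to 1.09) that did not pass. In aged neutrophil-like cells Il18 fell 3.17-fold (1.81 to 5.45), on 23 and 39 UMIs.

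Il33, the nuclear alarmin, had epithelial and stromal sources. Alveolar type II-like cells, only 17, 25, 23 and 11 cells in the 4 libraries, stood at 856 CPM in the young nonventilated library, 670.1 CPM in the young ventilated, 414 CPM in the aged nonventilated and 582 CPM in the aged ventilated library. Neither ventilation ratio passed the fold there (0.783-fold, 0.657 to 0.935, and 1.41-fold, 1.11 to 1.77), and the aged nonventilated library was lower than the young one by 2.06-fold (1.68 to 2.54). Adventitial fibroblast-like cells stood at 48.6 CPM in the young nonventilated library, 429 CPM in the young ventilated, 68.00 CPM in the aged nonventilated and 393 CPM in the aged ventilated library, a rise of 8.84-fold (7.07 to 11.1) and 5.78-fold (4.59 to 7.30). Both ventilated libraries were well above both nonventilated ones, and this class held 24.2%, 43.8%, 37.3% and 38.05% of the Il33 UMIs of the kept cells. It numbered 137, 50, 114 and 36 cells in the 4 libraries in order. Over all cells the Il33 ratios were 1.61-fold (young) and 1.94-fold (aged). Cluster 2 of the alveolar fibroblast-like class had adventitial fibroblast as its second name, with a mean marker score of 0.139 against 1.56. Whether ventilation moved cells between these 2 names was not tested. Barcodes left out for over 10% mitochondrial UMIs held 359, 377, 441 and 501 UMIs of Il33 in the 4 libraries in order. The kept cells held 422, 785, 314 and 573. In alveolar type II-like cells the median mitochondrial share was 8.01%, 6.67%, 7.31% and 6.18%. The left-out barcodes were not split into classes.

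Alveolar fibroblast-like cells held little Il33 in 3 of the libraries. Their UMIs of Il33 numbered 8, 48, 4 and 162 UMIs in the 4 libraries in order, that is, 2.33 and 7.003 CPM in the young libraries and 1.33 and 43.3 CPM in the aged libraries, nonventilated first. The rise was 3.000-fold (1.41 to 7.34) in young and 32.6-fold (12.5 to 121) in aged mice, and the aged ventilated library was 6.18-fold (4.46 to 8.72) above the young ventilated one. The thinned share of these cells with an Il33 UMI was 0.741% and 1.06% in young mice, 0 of 225 cells (which allows a share of up to 1.33%) and 5.88% in aged mice, beside at most 0.200% in general capillary-like cells, whose median depths were 6638, 6038, 7214 and 7177 UMIs, against 11770, 13568, 11860.5 and 13292 UMIs in the fibroblast-like cells. Alveolar type I-like cells held 19, 29, 1 and 17 UMIs of Il33 in shallow cells, with medians of 1998, 1491, 2625 and 1739 UMIs, and mesothelial-like cells 29, 41, 5 and 9 UMIs in 10, 14, 3 and 3 cells.

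**Figure D3:**
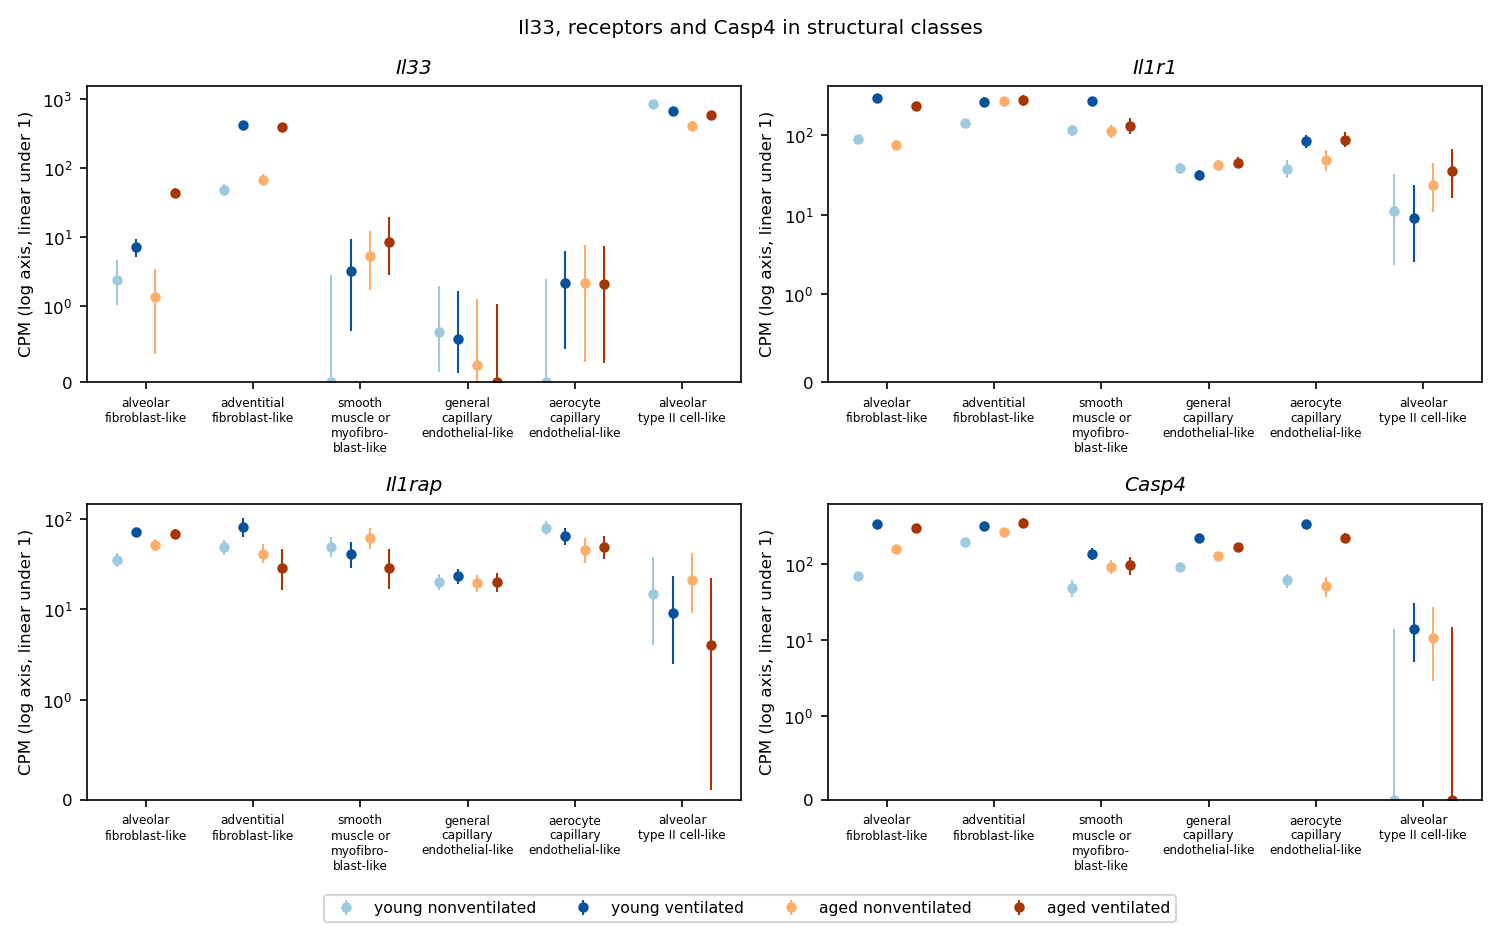
CPM of Il33, Il1r1, Il1rap and Casp4 on a log axis (linear under 1 CPM) in 6 structural cell classes, with 1 point per library and bars for the exact Poisson 95% interval. Il33 is higher in both ventilated libraries of adventitial fibroblast-like cells, Il1r1 in both of alveolar fibroblast-like cells and Casp4 in both of aerocyte-like cells.

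Il1rn, the antagonist, could be counted in 5 classes, all myeloid, and rose in 5 of them in young mice and in 3 in aged mice. Over all genes, 9.28% of the counted pairs of a gene and a class rose in young mice and 5.92% in aged mice. Classical monocyte-like cells stood at 15.7 CPM in the young nonventilated library, 244 CPM in the young ventilated, 19.3 CPM in the aged nonventilated and 261 CPM in the aged ventilated library, a rise of 15.6-fold (10.5 to 24.2) and 13.6-fold (8.97 to 21.5). Nonclassical monocyte-like cells stood at 5.96 and 112 CPM in the young libraries and 14.5 and 152 CPM in the aged libraries, nonventilated first, and rose 18.8-fold (9.37 to 44.3) and 10.4-fold (7.64 to 14.6). Neutrophil-like cells, where the gene was already present without ventilation, stood at 214 and 697 CPM in the young libraries and 201 and 672 CPM in the aged libraries and rose 3.26-fold (2.68 to 3.99) and 3.34-fold (2.50 to 4.55). In these 3 classes the aged to young ratios of the ventilated libraries were 1.07-fold (0.947 to 1.21), 1.35-fold (1.13 to 1.62) and 0.964-fold (0.874 to 1.06).

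In the macrophage classes the ratio with ventilation was larger in young than in aged mice, a difference that was not tested. Interstitial macrophage-like cells stood at 16.3 CPM in the young nonventilated library, 512 CPM in the young ventilated, 68.6 CPM in the aged nonventilated and 119.9 CPM in the aged ventilated library, from 21, 452, 79 and 136 UMIs. The rise was 31.5-fold (20.3 to 51.4) in young mice and the ratio 1.75-fold (1.31 to 2.34) in aged mice. The aged library was above the young one without ventilation (4.22-fold, 2.58 to 7.18) and below it with ventilation (4.27-fold, 3.52 to 5.21). Alveolar macrophage-like cells stood at 118 and 297 CPM in the young libraries and 169 and 215 CPM in the aged libraries, nonventilated first, and passed in young (2.52-fold, 2.14 to 2.96) and not in aged mice (1.27-fold, 1.05 to 1.53).

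Because the interstitial macrophage-like cluster held some dendritic cell markers, its cells were also split at 10 UMIs of C1qa, C1qb and C1qc together, the complement genes of interstitial macrophages. Cells with 10 or more made up 64.4%, 64.4%, 60.5% and 68.7% of the class in the 4 libraries in order. Their Il1rn stood at 26.2, 679, 113 and 141 CPM, and their Il1b at 1277, 5517, 1443 and 3139.8 CPM. The young ventilated library therefore also stood above the other 3 among the C1q-rich cells. The C1q-poor cells held more of the decoy receptor, Il1r2, with 379.7, 359.5, 479.8 and 1157 CPM.

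Agonist and antagonist RNA were found together in a larger share of classical monocyte-like and neutrophil-like cells in the ventilated libraries. With cells thinned to 2000 UMIs in a separate random draw, whose shares of Il1b can differ by a few points from those given above, 0.952% of classical monocyte-like cells held UMIs of both Il1b and Il1rn in young nonventilated mice and 22.7% in young ventilated mice, and in aged mice the shares were 2.20% and 32.9%. Among neutrophil-like cells the shares were 35.04% and 68.02% in young and 37.3% and 62.4% in aged mice. Nearly every thinned neutrophil-like cell held Il1b, so there the share with both is the share with Il1rn. In either class a rise of Il1rn alone raises the share with both. Whether the 2 genes met in the same cells more often than that was not tested. Interstitial macrophage-like cells had 0 of 85 cells, which allows a share of up to 3.53%, and 31.6% in young mice but 14.8% and 11.9% in aged mice. Few cells held Il1rn without Il1b, except among alveolar macrophage-like cells, where between 18.2% and 22.2% did. Dendritic-like cells held Il1b with no Il1rn UMI in any of the 33, 41, 49 and 34 thinned cells of the 4 libraries, which allows shares of up to 9.09%, 7.32%, 6.12% and 8.82%.

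**Figure D4:**
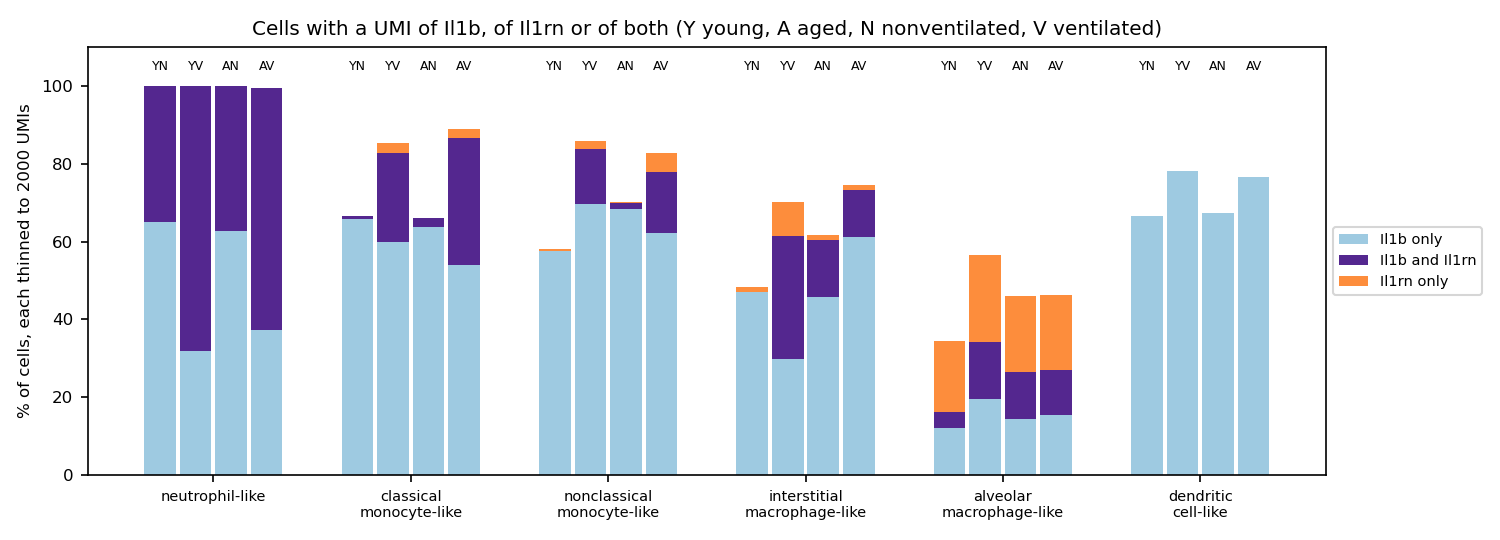
Percent of cells with at least 2000 UMIs, each thinned to 2000 UMIs, that hold UMIs of both Il1b and Il1rn, of Il1b alone or of Il1rn alone (stacked bars, with the space up to 100 left for cells with neither), in 6 myeloid classes and the 4 libraries. The share with both is 22.7% and 32.9% in ventilated classical monocyte-like cells, against 0.952% and 2.20% without ventilation, and 0 in dendritic-like cells.

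Il1r1, the signaling receptor, lay mostly outside the myeloid classes. Alveolar fibroblast-like cells stood at 89.3 CPM in the young nonventilated library, 292 CPM in the young ventilated, 75.7 CPM in the aged nonventilated and 236 CPM in the aged ventilated library, a rise of 3.28-fold (2.90 to 3.71) in young and 3.11-fold (2.69 to 3.62) in aged mice. Both ventilated libraries were above both nonventilated ones, and the class held 23.4%, 62.5%, 16.6% and 50.1% of the Il1r1 UMIs of the 4 libraries in order. Smooth muscle or myofibroblast-like cells stood at 116 and 268 CPM in the young libraries and 112 and 132 CPM in the aged libraries, nonventilated first, and passed in young (2.31-fold, 1.88 to 2.84) and not in aged mice (1.18-fold, 0.870 to 1.59). Aerocyte-like (2.21-fold, 1.60 to 3.09) and innate lymphoid-like cells (2.03-fold, 1.46 to 2.84) also passed in young mice. Venous-like cells (169.6 and 244 CPM in the young libraries and 162 and 225 CPM in the aged libraries) and adventitial fibroblast-like cells (143 and 263 CPM in the young libraries and 270.3 and 279 CPM in the aged libraries) did not pass at either age, and general capillary-like cells had ratios of 0.824-fold (0.663 to 1.02) and 1.08-fold (0.868 to 1.34). Innate lymphoid-like cells, which stood highest, held 283 and 573 CPM in the young libraries and 394 and 644 CPM in the aged libraries, nonventilated first. Alveolar type I-like cells passed in young mice on 14 and 44 UMIs (2.05-fold, 1.10 to 4.05). Classical monocyte-like cells were near the floor, with 12, 20, 2 and 2 UMIs in the 4 libraries.

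Il1rap, the accessory chain shared with the IL-33 receptor, stood highest in neutrophil-like cells at 1626 and 1587 CPM in the young libraries and 1399 and 1289 CPM in the aged libraries, nonventilated first, and did not pass the fold there. Dendritic-like cells moved from 49.4 to 229 CPM (young) and from 60.7 to 126 CPM (aged), a rise of 4.64-fold (3.21 to 6.89) and 2.08-fold (1.49 to 2.92) and the only rise of this gene at both ages. Alveolar fibroblast-like cells rose 2.07-fold (1.69 to 2.54) in young mice, with 1.33-fold (1.09 to 1.64) in aged mice. Alveolar macrophage-like cells had 257 and 267 CPM in the young libraries and 312 and 160.5 CPM in the aged libraries, without a ratio past the fold in any of the 4 comparisons. Capillary, venous, aerocyte, pericyte, monocyte and interstitial macrophage-like classes held less, between 15.96 CPM in aged ventilated venous-like cells and 100.1 CPM in young ventilated classical monocyte-like cells, and passed the fold with ventilation at neither age. Neither did adventitial fibroblast-like (48.6 and 81.1 CPM in the young libraries and 41.3 and 28.8 CPM in the aged libraries) or B-like cells (17, 12, 25 and 17 UMIs). Lymphatic-like cells held 23, 5, 2 and 0 UMIs and basophil or mast cell-like cells 31, 18, 11 and 6 UMIs in the 4 libraries in order. In smooth muscle or myofibroblast-like cells it fell in aged mice (2.11-fold, 1.21 to 3.86), on 58 and 17 UMIs.

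Il1r2, the decoy, was concentrated in neutrophil-like cells, which held 81.2%, 78.9%, 59.6% and 66.96% of its UMIs. It stood there at 4465 CPM in the young nonventilated library, 2755 CPM in the young ventilated, 3803 CPM in the aged nonventilated and 2517 CPM in the aged ventilated library, lower in each ventilated library than in either nonventilated one, but by less than 2-fold (0.617-fold, 0.585 to 0.651, and 0.662-fold, 0.615 to 0.713). In aged mice Il1r2 rose in classical monocyte-like cells, from 61.96 to 253 CPM (4.09-fold, 3.21 to 5.27), and in interstitial macrophage-like cells, from 234 to 473 CPM (2.02-fold, 1.74 to 2.34), while the young ratios were 1.52-fold (1.23 to 1.88) and 1.14-fold (0.932 to 1.39). Within the interstitial macrophage-like class, C1q-rich cells held 35.4, 106.5, 34.7 and 105.7 CPM of Il1r2 in the 4 libraries in order. The C1q-poor cells, given above, held more in each library. Nonclassical monocyte-like cells passed at both ages on 4, 47, 87 and 154 UMIs, but 71.3% of the aged nonventilated UMIs lay in 1 cell, and the aged ratio turned below 1 without the cells of the highest Scrublet (doublet) scores. Dendritic-like cells stood at 145 and 239 CPM in the young libraries and 139 and 206 CPM in the aged libraries, nonventilated first, past the fold at neither age, and alveolar fibroblast-like and B-like cells held at most 45 and 25 UMIs in a library. The neutrophil marker RNA described above moved with Il1r2 in both monocyte classes, and its part in these values was not tested.

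Nlrp3, the sensor, resembled Il1b in where it was found and moved less. Neutrophil-like cells stood at 1176 CPM in the young nonventilated library, 1482 CPM in the young ventilated, 1145 CPM in the aged nonventilated and 1532 CPM in the aged ventilated library, with ratios of 1.26-fold (1.15 to 1.38) and 1.34-fold (1.18 to 1.52) that did not pass the fold. Interstitial macrophage-like cells held between 431 and 475 CPM in all 4 libraries. Nonclassical monocyte-like cells stood at 111 and 216 CPM in the young libraries and 107 and 281 CPM in the aged libraries, nonventilated first, and passed in aged mice (2.61-fold, 2.29 to 2.99) with 1.95-fold (1.61 to 2.37) in young mice. Classical monocyte-like cells stood at 141 and 282 CPM in the young libraries and 181 and 310.0 CPM in the aged libraries, at the fold in young mice (2.001-fold, 1.71 to 2.35) and short of it in aged mice (1.71-fold, 1.47 to 2.000). Alveolar macrophage-like (191 and 159 CPM in the young libraries and 171 and 237 CPM in the aged libraries) and dendritic-like cells (236 and 169.8 CPM in the young libraries and 273 and 212 CPM in the aged libraries) did not pass at either age.

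Casp4 could be counted in more classes than any other member, and rose in 8 of 16 in young and in 5 of 16 in aged mice. Over all genes, 9.28% and 5.92% of the counted pairs rose. In young mice Il1rn rose in 5 of 5 classes, Il1b in 7 of 12 and Il1r1 in 5 of 9, each a larger share than that of Casp4. Aerocyte-like cells, the capillary cells of gas exchange, stood at 59.9 CPM in the young nonventilated library, 328 CPM in the young ventilated, 50.2 CPM in the aged nonventilated and 220.1 CPM in the aged ventilated library, a rise of 5.48-fold (4.37 to 6.93) and 4.39-fold (3.19 to 6.15). Both ventilated libraries were above both nonventilated ones. Alveolar fibroblast-like cells stood at 67.98 and 331 CPM in the young libraries and 157 and 298 CPM in the aged libraries, nonventilated first, a rise of 4.87-fold (4.25 to 5.60) in young mice and a ratio of 1.89-fold (1.70 to 2.11) in aged mice, and without ventilation the aged library was 2.32-fold (1.98 to 2.72) above the young one. General capillary-like cells stood at 90.7 and 219 CPM in the young libraries and 127 and 163 CPM in the aged libraries and passed in young mice alone (2.41-fold, 2.15 to 2.70, against 1.28-fold, 1.14 to 1.44). The thinned share of aerocyte-like cells with a Casp4 UMI was 3.80%, 41.96%, 10% and 32.2% in the 4 libraries in order, unthinned 20.8%, 53.5%, 22.5% and 50%, at median depths of 7231, 5042, 6984 and 8514 UMIs. Cluster 19 of this class had 237 cells with a median of 927 UMIs, so the thinned and unthinned shares are over different cells.

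Casp4 rose further in young smooth muscle or myofibroblast-like (2.83-fold, 2.07 to 3.89), venous-like (2.03-fold, 1.64 to 2.51), lymphatic-like (2.54-fold, 1.58 to 4.19), mesothelial-like (2.48-fold, 1.46 to 4.47) and B-like cells (5.48-fold, 3.59 to 8.52). In aged mice it rose in alveolar macrophage-like (2.30-fold, 1.80 to 2.95), neutrophil-like (2.02-fold, 1.61 to 2.56), dendritic-like (2.76-fold, 1.88 to 4.11) and T-like cells (6.64-fold, 3.11 to 16.3). The dendritic-like ratio turned below 1 when the UMI limit was taken over the barcodes that passed the other limits. Innate lymphoid-like cells held 14, 20, 10 and 4 UMIs of Casp4, past the fold in neither ventilation comparison. Neutrophil-like cells stood at 353 and 588 CPM in the young libraries and 341 and 687 CPM in the aged libraries, nonventilated first, with 1.66-fold (1.42 to 1.96) in young mice. Interstitial macrophage-like cells differed from these classes, at 391 and 198 CPM in the young libraries and 207 and 235 CPM in the aged libraries, and their young ratio of 0.507-fold (0.424 to 0.603) stopped short of the fold. Adventitial fibroblast-like (1.62-fold, 1.37 to 1.90, and 1.32-fold, 1.11 to 1.57) and both monocyte classes (1.35-fold, 1.10 to 1.66, and 1.24-fold, 1.01 to 1.52 in the classical, 1.09-fold, 0.847 to 1.41, and 1.60-fold, 1.35 to 1.88 in the nonclassical) did not pass at either age. The fall of Casp4 in aged alveolar type I-like cells (3, 18, 45 and 8 UMIs in the 4 libraries) turned above 1 under 4 of the alternatives given at the end.

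Set over all classes, 36 were higher and 4 lower with ventilation in young mice of the 89 pairs of a member and a class that held enough UMIs, of 200 pairs in all. Over all genes, 9.28% of 122060 such pairs were higher and 15.2% lower by the same rule. The median log2 ratio was 0.75 for the members and -0.11 for all genes. In aged mice 28 pairs were higher and 4 lower of 80 counted, of 190 in all, beside 5.92% and 10.2% over all genes, with medians of 0.55 and -0.086. Pairs that reach 20 UMIs only through the library where they are high had to differ, so these counts describe the pairs counted and not all 10 genes in every class.

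The ventilation comparisons at the 2 ages share no library. Of 75 pairs counted at both ages, 61 had ratios of the same sign, 16 were higher past the fold at both, 1 was lower at both and 0 went opposite ways past the fold. In percent of the pairs counted at both ages, 81.3% of the members and 70.4% of all genes had ratios of the same sign, and 21.3% and 3.23% were higher past the fold at both. Those 16 were 48.5% of the 33 pairs higher in young mice and 64% of the 25 pairs higher in aged mice among the 75, beside 39.3% and 59.1% over all genes. The 16 comprised Il1b and Il1rn in both monocyte classes, Il1rn and Il1a in neutrophil-like cells, Il1a in alveolar macrophage-like cells, Il18 and Il1r2 in nonclassical monocyte-like cells, Il33 in both fibroblast classes, Il1r1 in alveolar fibroblast-like cells, Il1rap in dendritic-like cells and Casp4 in aerocyte-like cells, beside Il1b and Il1r2 in alveolar fibroblast-like cells. For these last pairs, no UMIs were left to compare at either age with 5% of each class sum removed. The aged ratio of Il1r2 in nonclassical monocyte-like cells turned below 1 under another setting, as given above.

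**Figure D5:**
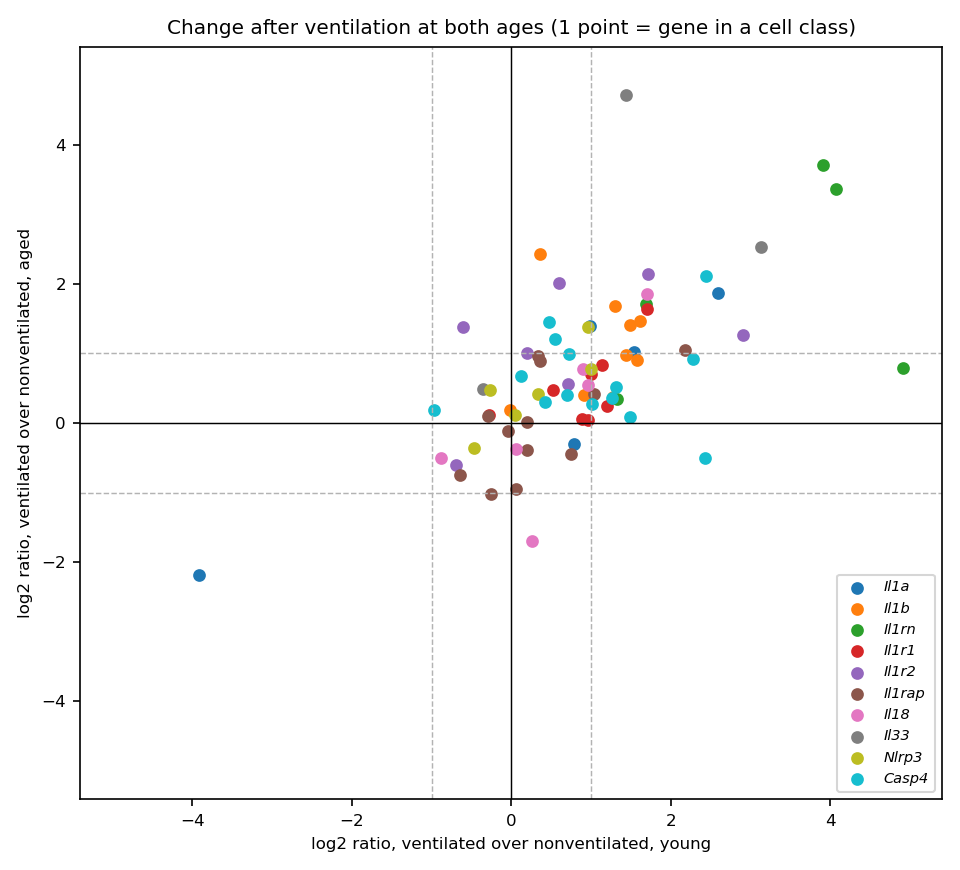
Log2 ratio of CPM with ventilation in aged mice (vertical axis) against that in young mice (horizontal axis) for the 75 pairs of a member and a class counted at both ages, with 1 point per pair. Most points, 61 of 75, have ratios of the same sign on both axes, and Il1rn in interstitial macrophage-like cells lies far to the right of the diagonal.

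Fewer pairs passed the fold between the ages. Without ventilation 9 pairs were higher and 9 lower in aged mice of 79 counted, beside 3.27% and 2.47% over all genes, and the median log2 ratio of the members was 0.026 against -0.014 for all genes. With ventilation 5 pairs were higher and 7 lower of 81, beside 4.22% and 4.29%, with medians of -0.12 and 0.012. The age and the ventilation comparisons share libraries. Among the pairs with the most UMIs, the aged ventilated library was higher than the young ventilated one for Il33 in alveolar fibroblast-like cells and for Il1r2 in interstitial macrophage-like cells (2.36-fold, 1.98 to 2.81), and lower for Il1rn in interstitial macrophage-like cells and Il1r1 in smooth muscle or myofibroblast-like cells (2.03-fold, 1.57 to 2.65). This Il1r2 difference lay in the C1q-poor cells, at 359.5 CPM (young ventilated) and 1157 CPM (aged ventilated), on 21 cells in each library. The C1q-rich cells held 106.5 and 105.7 CPM of Il1r2. Without ventilation, basophil or mast cell-like cells held more Il1b in the aged library (2.06-fold, 1.69 to 2.51) and classical monocyte-like cells less Il1rap (2.11-fold, 1.49 to 3.04).

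The rest of the pathway moved around the members. Of the other ligands only Il36g, an epithelial and neutrophil cytokine, had enough UMIs, and it rose in neutrophil-like cells from 312 to 911 CPM in young (2.92-fold, 2.48 to 3.46) and from 299.5 to 1129.8 CPM in aged mice (3.77-fold, 2.98 to 4.84). The neutrophil-like cluster counted this gene, too, among its leading genes. Il36g further rose in nonclassical monocyte-like cells, from 0 to 23 UMIs in young mice (at least 5.99-fold) and from 0 to 66 UMIs in aged mice (at least 29.9-fold), with each 0 set at 3 UMIs. Neutrophil marker RNA moved in the same class, from 235 to 1082 CPM (young) and from 318 to 4175 CPM (aged). Its part in this Il36g was not tested. Alveolar type I-like cells held 40 UMIs of it in the young ventilated library and 0 in both the young nonventilated and the aged ventilated one, at least 8.69-fold higher with ventilation in young mice and at least 7.89-fold lower in the aged ventilated library. The other receptors and binding proteins were higher in 7 and lower in 6 of 27 pairs in young and in 6 and 6 of 24 in aged mice, with median log2 ratios of 0.083 and 0.23. In percent, 25.9% were higher and 22.2% lower in young mice, beside 9.28% and 15.2% over all genes. In aged mice the shares were 25% and 25%, beside 5.92% and 10.2%. Il18bp, which neutralizes IL-18, rose in general capillary-like cells from 12.2 to 34.7 CPM in young mice, where Sigirr, a receptor that dampens IL-1 signaling, fell from 25.02 to 5.07 CPM. Sigirr also fell in aged general capillary-like cells, from 23.3 to 10.2 CPM. Il1rl1, the IL-33 receptor, fell in interstitial macrophage-like cells from 58.1 to 13.6 CPM (young) and from 39.1 to 8.82 CPM (aged).

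Among the 15 genes that carry the signal from the receptor, 26 pairs were higher and 10 lower of 212 in young mice (median log2 ratio 0.18) and 6 and 8 of 199 in aged mice (median -0.0011). That is, 12.3% were higher and 4.72% lower in young mice, beside 9.28% and 15.2% over all genes. In aged mice the shares were 3.02% and 4.02%, beside 5.92% and 10.2%. In young alveolar fibroblast-like cells Nfkb1, an NF-κB subunit, moved from 292 to 1712 CPM (5.86-fold, 5.50 to 6.26) and the adaptor Myd88 from 25.7 to 80.5 CPM. In aged ones the kinase Map3k8 moved from 30.9 to 80.99 CPM and Irak2 fell from 29.9 to 9.62 CPM. The 7 brakes on the receptor were higher in 31 and lower in 2 of 103 pairs in young and in 10 and 3 of 98 in aged mice, with medians of 0.43 and 0.10. Their shares were 30.1% higher and 1.94% lower in young and 10.2% and 3.06% in aged mice, beside the shares over all genes just given. Nfkbia, the NF-κB inhibitor, rose in classical monocyte-like cells from 227 to 1216 CPM (young) and from 462 to 1588 CPM (aged), and the ubiquitin editor Tnfaip3 rose in aerocyte-like cells from 44.95 to 192 CPM and from 46.99 to 161 CPM.

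The 20 further genes of inflammasomes moved both ways, 40 pairs higher and 38 lower of 180 in young and 27 and 23 of 178 in aged mice, with medians of -0.034 and -0.057. In young mice 22.2% were higher and 21.1% lower, beside 9.28% and 15.2% over all genes. In aged mice the shares were 15.2% and 12.9%, beside 5.92% and 10.2%. Gbp5, a GTPase that assists NLRP3, rose in neutrophil-like cells from 7.25 to 260.2 CPM and from 28.7 to 275 CPM, and Ninj1, the membrane rupture protein, rose in classical monocyte-like cells from 104 to 585 CPM and from 134 to 643 CPM. Mefv, the pyrin sensor, rose in nonclassical monocyte-like cells from 12.7 to 73.9 CPM and from 19.4 to 124 CPM. P2rx7, the ATP-gated channel that triggers NLRP3, fell in aerocyte-like cells from 31.3 to 4.25 CPM and from 25.6 to 5.14 CPM. In young interstitial macrophage-like cells, where Il1b and Il1rn rose, Nlrp1b (from 118 to 15.9 CPM), Txnip (from 96.9 to 18.1 CPM) and Nlrc4 (from 34.1 to 6.80 CPM) fell.

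Genes that IL-1 is known to induce, many of which other cytokines induce too, passed the fold upward in most of their counted pairs in young mice. They were higher in 99 and lower in 5 of 146 pairs in young mice, with a median log2 ratio of 2.22, and in 59 and 10 of 125 pairs in aged mice, with a median of 0.83. These make 67.8% higher and 3.42% lower in young mice, beside 9.28% and 15.2% over all genes. In aged mice the shares were 47.2% and 8%, beside 5.92% and 10.2%. In alveolar fibroblast-like cells, the class with most of the Il1r1 after ventilation, Saa3, an acute phase apolipoprotein, moved from 2.92 to 3961 CPM (young) and from 20.9 to 1119.7 CPM (aged), and Lcn2, an iron-binding protein, from 1.46 to 78.9 CPM and from 3.32 to 157 CPM. The cytokine Lif moved from 2.33 to 99.2 CPM in young ones. Sele, the endothelial selectin, rose in general capillary-like cells from 0.870 to 42.1 CPM and from 0.222 to 36.4 CPM. Between the ventilated libraries 15 pairs of this list were higher and 36 lower in aged mice of 144, and between the nonventilated ones 29 were higher and 7 lower of 98, with medians of -0.26 and 0.46. With ventilation that is 10.4% and 25%, beside 4.22% and 4.29% over all genes. Without it the shares were 29.6% and 7.14%, beside 3.27% and 2.47%. Lif (from 99.2 to 15.2 CPM), Saa3 (from 3961 to 1119.7 CPM) and Csf3 (from 9.19 to 2.41 CPM) were the 3 with the largest differences in alveolar fibroblast-like cells, all lower in the aged ventilated library. Saa3 also reached 10278 CPM in aged ventilated classical monocyte-like cells, from 0 UMIs without ventilation, at least 4092-fold higher when the 0 is set at 3 UMIs. Cluster 16, which held most ventilated cells of this class, counted Saa3 among its 10 leading genes, and Saa3 was allowed in the clustering.

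Genes that answer to dissociation and to stress hormones were counted in the same libraries. Immediate early genes, which dissociation induces, were lower in 48 and higher in 30 of 264 pairs in young mice and lower in 22 and higher in 9 of 253 in aged mice, that is, 18.2% and 11.4% in young and 8.70% and 3.56% in aged mice, beside 15.2% and 9.28%, and 10.2% and 5.92%, over all genes. These shares lay near those of all genes, with medians of -0.31 and -0.18. In young interstitial macrophage-like cells, where Il1b and Il1rn rose, Egr1 (from 1520.3 to 235 CPM), Fosb (from 1159 to 182 CPM) and Jun (from 1086 to 192 CPM) fell. Glucocorticoid response genes were higher in 55 and lower in 25 of 166 pairs in young and in 50 and 10 of 164 in aged mice, that is, 33.1% and 30.5% higher, with medians of 0.055 and 0.33. Mt2 and Mt1, the metallothioneins, led them in alveolar fibroblast-like cells, where Mt2 moved from 156 to 5485 CPM (young) and from 174 to 5221 CPM (aged). The part of dissociation and of stress hormones in the values of the members was not tested.

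Across 80 pairs of a class and a library, the genes most like each member by Pearson correlation of log2(CPM + 10), among 10241 genes, were as follows, as a description of points that share libraries and cells. Il1b went with Nlrp3 (0.96), Alox5ap (0.95) and Csf2rb (0.93), and Nlrp3 with Csf2rb (0.96), Il1b (0.96) and Alox5ap (0.94), so that these members were in each other's nearest 3. Il1rn went with Clec5a (0.95), Clec4n (0.95) and Tlr2 (0.90). Il1r2 was nearest to Cass4 (0.88), Gm14548 (0.87) and Gm34084 (0.87), and Il1rap to Hcar2 (0.81), Cxcr2 (0.80) and Ccr1 (0.78). Il18 was nearest to Mpeg1 (0.89), Rab32 (0.87) and Mcemp1 (0.84), Il33 to Aox3 (0.85), Ang (0.83) and Tspan11 (0.82) and Il1r1 to Palld (0.81), Tmem176b (0.72) and Tmem176a (0.72). Il1a went with Pik3r6 (0.75), Ckap2l (0.75) and Rnf180 (0.73) and Casp4 with Plekho2 (0.75), Ehd1 (0.68) and B4galt5 (0.67), at lower values than for Il1b.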

How the data were processed

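The authors sequenced 4 libraries of lung cells with a 10x Genomics 3′ kit and deposited a matrix of raw UMI counts for each. The submitters' processing notes name Cell Ranger 7.0.0 and the mouse build mm10, and they do not say whether reads in introns were counted. Reads near the 3′ end are counted, so gene length is not divided out. In the feature lists Il36a, Il36b and Il36g stand under the older symbols Il1f6, Il1f8 and Il1f9.

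Barcodes were kept when they had between 200 and 5000 genes, no more than 10% of UMIs from mitochondrial genes, and up to 28597 UMIs (the 93rd percentile over all barcodes), after the study's methods. Kept cells held 22814008 to 28010151 UMIs in a library. Clusters were made in Seurat 5.3.0 (R 4.3.3) from counts normalized to 1000000 per cell and log-transformed, 2000 variable genes without 64 members and pathway genes, 37 components and resolution 1, without integration. The listed genes that IL-1 is known to induce were not among those 64. A cluster took a name from markers when the mean marker score reached 1 and at least 3 markers were detected in 20% of its cells, a rule set after the clusters had been seen. Scrublet (scanpy 1.11.5) marked 38 of 10160 cells (0.374%) as doublets, a share at which its calls cannot be used, so leaving out the highest 5% of scores was run as an alternative. Free RNA was not corrected except in an alternative that removed 5% of each sum.

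Levels are CPM of summed counts with exact Poisson intervals, ratios have exact conditional binomial intervals and shares of cells Clopper-Pearson intervals, all at 95% (scipy 1.17.1), and log2 ratios add 1 UMI to each count. Log2 ratios in the text come from these sums. The code was tested on simulated data. For bounds, a level of 0 was set at 3 UMIs and a share of 0 at 3 cells. All 10 members are named in each class with 20 UMIs in a library, and of each other list at most the 3 genes past the fold with the largest log2 ratio in a class and comparison. The members and lists were chosen with earlier results of these data known. The closing section gives the results under 18 other settings and 2 more that were chosen after the data had been seen. Promoters and gene positions come from RefSeq tables for GRCm38.p6 and GRCm38.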

Additional observations from a re-analysis of the deposited data

Results flagged for a closer look

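Barcodes that the filters left out also held members at levels that differed with ventilation. Among barcodes with over 10% mitochondrial UMIs, the log2 ratio of the young ventilated over the young nonventilated library was 1.22 for Il1a, 1.67 for Il1rn, 1.22 for Il1r1 and 1.32 for Casp4. Among barcodes over the limit on genes or UMIs it was 1.00 for Il1a, 1.11 for Il1b, 1.83 for Il1rn and 1.16 for Il33 in young mice, and 1.14 for Il1r2 and 1.43 for Il33 in aged mice. These barcodes were not split into cell classes.

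The other results stand out because the ratio had opposite signs in the 2 settings of the same comparison, each with an interval that left out 1. With 1 library in a group these differences were not tested. With ventilation, the log2 ratio of Il33 in alveolar type II-like cells was -0.35 (young) and 0.49 (aged). Nlrp3 in alveolar macrophage-like cells had -0.26 and 0.47, and Casp4 in B-like cells 2.43 and -0.51. Between aged and young mice, the log2 ratio of Il1rn in interstitial macrophage-like cells was 2.03 without and -2.09 with ventilation, and that of Il1rn in alveolar macrophage-like cells 0.52 and -0.46. In the same order, Il1rap had 0.28 and -0.73 in alveolar macrophage-like cells, Il18 1.12 and -0.83 in neutrophil-like cells and Il1r2 -0.51 and 0.91 in classical monocyte-like cells. Casp4 had 1.21 and -0.15 in alveolar fibroblast-like cells, 0.49 and -0.42 in general capillary-like cells, 0.91 and -0.50 in smooth muscle or myofibroblast-like cells and 0.95 and -1.98 in B-like cells.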

How the results depend on the processing

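With the settings of the report, the other pathway genes of the 6 pathway lists together had 206 pairs higher and 61 lower with ventilation in young mice, 110 and 50 with ventilation in aged mice, 46 and 14 with age in nonventilated mice and 35 and 81 with age in ventilated mice. Below, (young) and (aged) stand for the ventilation comparison at that age, and (nonventilated) and (ventilated) for the age comparison in those mice. Of 102 pairs of a member and a class past the fold in any of the 4 comparisons, 28 stayed past it, in the same direction, under every alternative that gave a value. Thinning to 2000 UMIs, which discards UMIs and shallower cells by construction, took 60 below the rule. No paired analysis was possible because each group was 1 library, and for the same reason no replicate could be left out. The number of member pairs higher with ventilation in young mice stayed within 1.5 times of 36 under all alternatives run, and in aged mice it stayed within 1.5 times of 28 except with thinned cells.

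With the UMI limit taken over barcodes that passed the other limits, the member pairs counted were 8 lower (young). The sign turned, with log2 ratios of -0.24 for Casp4 in dendritic-like cells (aged), 0.52 for Il1a in dendritic-like cells (aged) and -0.11 for Il1r2 in B-like cells (aged). Without upper limits on genes and UMIs, the member pairs counted were 11 lower (young), 7 lower (aged), 15 higher (nonventilated), 11 higher (ventilated) and 16 lower (ventilated) and those of the other pathway genes 24 lower (nonventilated). Opposite in sign were the log2 ratios of 0.22 for Casp4 in alveolar type I-like cells (aged), -0.61 for Il1b in general capillary-like cells (nonventilated) and -0.014 for Il1b in general capillary-like cells (young). With a mitochondrial limit of 5%, log2 ratios of the opposite sign were -0.065 for Casp4 in alveolar type I-like cells (nonventilated) and 0.49 for Casp4 in alveolar type I-like cells (aged). At resolution 0.18, the member pairs counted were 5 higher (nonventilated) and 3 higher (ventilated) and those of the other pathway genes 33 lower (aged) and 9 lower (nonventilated). With 20 principal components, the member pairs counted were 8 lower (young). The log2 ratios that turned sign were 0.033 for Casp4 in alveolar type I-like cells (aged). With members and pathway genes allowed in clustering, log2 ratios of the opposite sign were 0.15 for Il1a in dendritic-like cells (aged). With the mean of per-cell CPM, the member pairs counted were 2 lower (young), 5 lower (nonventilated) and 11 lower (ventilated) and those of the other pathway genes 22 lower (nonventilated). Turned in sign were log2 ratios of -0.039 for Il1b in alveolar fibroblast-like cells (young). With cells thinned to 2000 UMIs, the member pairs counted were 1 lower (young), 18 higher (aged), 1 lower (aged), 3 higher (nonventilated), 0 lower (nonventilated), 2 higher (ventilated) and 3 lower (ventilated) and those of the other pathway genes 120 higher (young), 23 lower (young), 60 higher (aged), 20 lower (aged), 23 higher (nonventilated), 8 lower (nonventilated), 16 higher (ventilated) and 40 lower (ventilated). Pairs with 20 UMIs in a library then numbered 58, against 94. Of opposite sign were log2 ratios of -1.18 for Il1r2 in alveolar fibroblast-like cells (aged). With 5% free RNA removed, the member pairs counted were 7 lower (aged) and 4 lower (ventilated). The sign of the log2 ratio turned to 0.71 for Il1b in aerocyte-like cells (nonventilated), -0.0562 for Il1b in aerocyte-like cells (aged), -0.31 for Il1b in alveolar fibroblast-like cells (aged), -0.999 for Il1b in alveolar fibroblast-like cells (young), -0.21 for Il1b in general capillary-like cells (young), -0.31 for Il1r2 in alveolar fibroblast-like cells (aged) and -0.999 for Il1r2 in alveolar fibroblast-like cells (young). In each of these pairs that removal left no UMIs of the gene in either library. Such a log2 ratio comes from the class sums and the added 1 UMI alone, and shows no change of the gene. Without the highest 5% of Scrublet scores, the member pairs counted were 2 lower (young), 2 lower (aged) and 4 lower (nonventilated). Log2 ratios of the opposite sign were 0.96 for Casp4 in alveolar type I-like cells (aged), 0.87 for Il1b in aerocyte-like cells (nonventilated), 0.085 for Il1b in lymphatic-like cells (young), 0.34 for Il1r2 in lymphatic-like cells (nonventilated), 0.085 for Il1r2 in lymphatic-like cells (young), -0.47 for Il1r2 in nonclassical monocyte-like cells (aged), 0.34 for Il1rap in lymphatic-like cells (nonventilated) and 0.82 for Il1rap in lymphatic-like cells (young). The lymphatic-like values of 0.085 and 0.34 lie near the 0.092 and 0.37 that equal counts give in that class. Without a UMI minimum, the member pairs counted were 15 lower (nonventilated) and 15 lower (ventilated) and those of the other pathway genes 28 lower (nonventilated) and 54 higher (ventilated). With a minimum of 50 UMIs, the member pairs counted were 1 lower (young), 2 lower (aged), 4 higher (nonventilated), 3 lower (nonventilated) and 4 lower (ventilated) and those of the other pathway genes 36 lower (young), 25 lower (aged), 7 lower (nonventilated), 15 higher (ventilated) and 50 lower (ventilated). At 1.5-fold, the member pairs counted were 7 lower (young), 14 higher (nonventilated), 8 higher (ventilated) and 13 lower (ventilated) and those of the other pathway genes 94 lower (young), 95 lower (aged), 92 higher (nonventilated), 31 lower (nonventilated), 68 higher (ventilated) and 125 lower (ventilated). Without the cell holding the most UMIs of the gene, the member pairs counted were 2 lower (nonventilated) and 4 lower (ventilated). The sign turned, with log2 ratios of 0.092 for Il1b in lymphatic-like cells (young), 0.37 for Il1r2 in lymphatic-like cells (nonventilated), 0.092 for Il1r2 in lymphatic-like cells (young) and 0.092 for Il1rap in lymphatic-like cells (young). These are the values that equal counts in both libraries give, so they show no change of the gene. The cause of these changes was not tested, except that the counts under other UMI minimums and folds, and with thinned cells, follow from their construction. Leaving out cells and leaving out shallow clusters (median under 2000 UMIs) were added after the data had been seen. Precision was limited by UMIs per class: of the 200 pairs in young mice, 89 could be counted.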

Other observations

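Basophil or mast cell-like cells, 18, 20, 22 and 6 cells in the 4 libraries in order, carried Il1b at 2418 CPM in the young nonventilated library, 4668 CPM in the young ventilated, 4976 CPM in the aged nonventilated and 2567 CPM in the aged ventilated library and Nlrp3 at 3065 and 2762 CPM in the young libraries and 2050.3 and 1987 CPM in the aged libraries, nonventilated first. The aged ventilated library held too few of them to be compared. Il1b was thus found in each library of this small class, on 142, 267, 381 and 84 UMIs.

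The unnamed cluster, with median depths of 2662, 3026, 3607 and 3874 UMIs, held Il1b at 885 and 684 CPM in the young libraries and 450.2 and 955 CPM in the aged libraries and Casp4 at 0 and 149 CPM in the young libraries and 280.1 and 289 CPM in the aged libraries, nonventilated first, on 15, 206, 90 and 99 UMIs and 0, 45, 56 and 30 UMIs.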
